A study of Homo sapiens with 12 samples.

Results

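The genes described here make, recycle and use glutathione. They were chosen by name for their place in the glutathione pathway, by no rule on their values. Earlier results of these data were known when they were chosen. The genes are SLC7A11, GCLC, GCLM, GSS, GSR, GPX1, GPX4, GLRX, GSTP1 and MGST1, 10 of the 25680 gene symbols counted. All 10 were among the 16782 genes that passed the filter on low counts, and no pair of them shares a chromosome in the GRCh38.p14 annotation. Their RNA was measured by bulk RNA sequencing in a pair of human multiple myeloma lines, MM.1S and U266, in 12 libraries. MM.1S cells received 6 µM IT848, which the labels call an NF-kB inhibitor, or its solvent DMSO for 6 h, and U266 cells received the same 6 µM IT848 or DMSO for 6 h. The series asked how this compound alters transcription in both lines. Each of the 4 groups (MM.1S with IT848, MM.1S with DMSO, U266 with IT848, U266 with DMSO) held 3 libraries, numbered 1 to 3. RPMI with fetal bovine serum was the medium throughout. Each line descends from the malignant plasma cells of a single patient and stands for that clone alone. Whether replicate libraries stem from separate cultures is not labelled, and the p-values measure only the spread between them, which may be technical.

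Glutathione is the main small thiol of the cell. Cystine enters through the antiporter xCT and yields cysteine, glutamate-cysteine ligase joins glutamate to cysteine in the rate-limiting step, and glutathione synthetase adds glycine. Peroxidases, glutaredoxins and transferases then spend glutathione on peroxides, on oxidised protein thiols and on electrophiles, and glutathione reductase returns the oxidised form to the reduced one with NADPH. Several of these genes are textbook targets of the stress factor NRF2. Plasma cells, which secrete large amounts of disulfide-bonded antibody, are known for a high demand on thiol chemistry.

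The libraries held 50627690 to 72039748 counts, or 22887470 to 32913398 with 1 transcript per gene. Levels are in CPM (counts scaled to a common library total with the TMM method). The summed level of 8 plasma cell markers was 6145 to 6361 in MM.1S with IT848 against 6402 to 6458 with DMSO. In U266 it was 2684 to 2777 with IT848 against 3112 to 3290 with DMSO. The sum was lower with IT848 without overlap in both lines, but the markers did not move together. SDC1, IRF4, PRDM1, XBP1 and CD38 were lower with IT848 in both lines, and TNFRSF17 in U266. SLAMF7 was higher, at a mean of 3755 against 2796 CPM in MM.1S and 905 against 652 CPM in U266. TNFRSF17 was higher in MM.1S, at 131 against 108 CPM, and MZB1 overlapped in both lines. In every library 5 T and NK cell markers together reached at most 1.42 CPM and 5 myeloid markers at most 4.76 CPM. The sum of 5 stromal markers was 21.9 to 28.5 CPM in MM.1S with IT848 against 14.9 to 19.6 CPM with DMSO, and 35.0 to 43.1 CPM in U266 with IT848 against 27.7 to 32.7 CPM with DMSO. The sum of 5 erythroid markers, 2 of them at 0 in every MM.1S library, was 4.22 to 5.43 CPM in MM.1S with IT848 against 2.19 to 2.28 CPM with DMSO, and 1.06 to 1.17 CPM in U266 with IT848 against 0.779 to 1.56 CPM with DMSO. The part of these markers in the results was not tested. A pair of libraries carried traces of the other line. In U266 IT848 replicate 1, 15 genes specific to MM.1S stood at 0.879% of their MM.1S level, against 0.104% and 0.0852% in replicates 2 and 3. In MM.1S DMSO replicate 2, 22 genes specific to U266 stood at 0.405% of their U266 level, against 0.0445% to 0.0631% in the MM.1S libraries with IT848. Calls and counts that change without these 2 libraries are given beside the results. Long and short transcripts also shifted against each other between libraries. The length of a gene's most counted transcript was ranked against its deviation in a library from the mean of all libraries of the same line. Across 11487 genes, this Spearman correlation was 0.03, −0.30 and −0.42 in the MM.1S libraries with IT848 and 0.37, 0.31 and 0.15 in those with DMSO. In U266 it was −0.21, 0.09 and −0.20 with IT848 and −0.0046, 0.19 and 0.12 with DMSO. In the fits with the length trend taken out, it was estimated from deviations from the mean of all libraries of both lines. Where taking that trend out changed a call or moved a called value by more than 1.5 times, this is given beside the response.

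IT848 raised the import and synthesis genes SLC7A11, GCLC and GCLM and the recycling gene GSR in both lines, by 1.66- to 4.43-fold in MM.1S and by 1.26- to 2.01-fold in U266. The glutathione-consuming genes GPX1, GPX4, GLRX and GSTP1 rose in MM.1S, by 1.24- to 2.16-fold. In U266 none of these 4 passed the test, with log2 fold changes of −0.02 to 0.06. GSS and MGST1 passed in neither line. In all, 8 of the 10 genes rose in MM.1S and 0 fell, where 18.7% of all genes tested rose, 19.6% fell and 38.3% changed in either direction (edgeR quasi-likelihood test, adjusted p below 0.05). In U266, 4 of 10 rose and 0 fell, where 4.03% of all genes rose, 4.98% fell and 9.01% changed. The median log2 fold change of the 10 genes was 0.61 in MM.1S and 0.20 in U266, beside −0.01 and 0.0055 over all genes tested. Both counts, 8 and 4, were also obtained without the 2 libraries with traces of the other line. These are bulk libraries scaled to a common total, so more RNA per cell and more cells holding that RNA cannot be told apart.

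**Figure D1:**
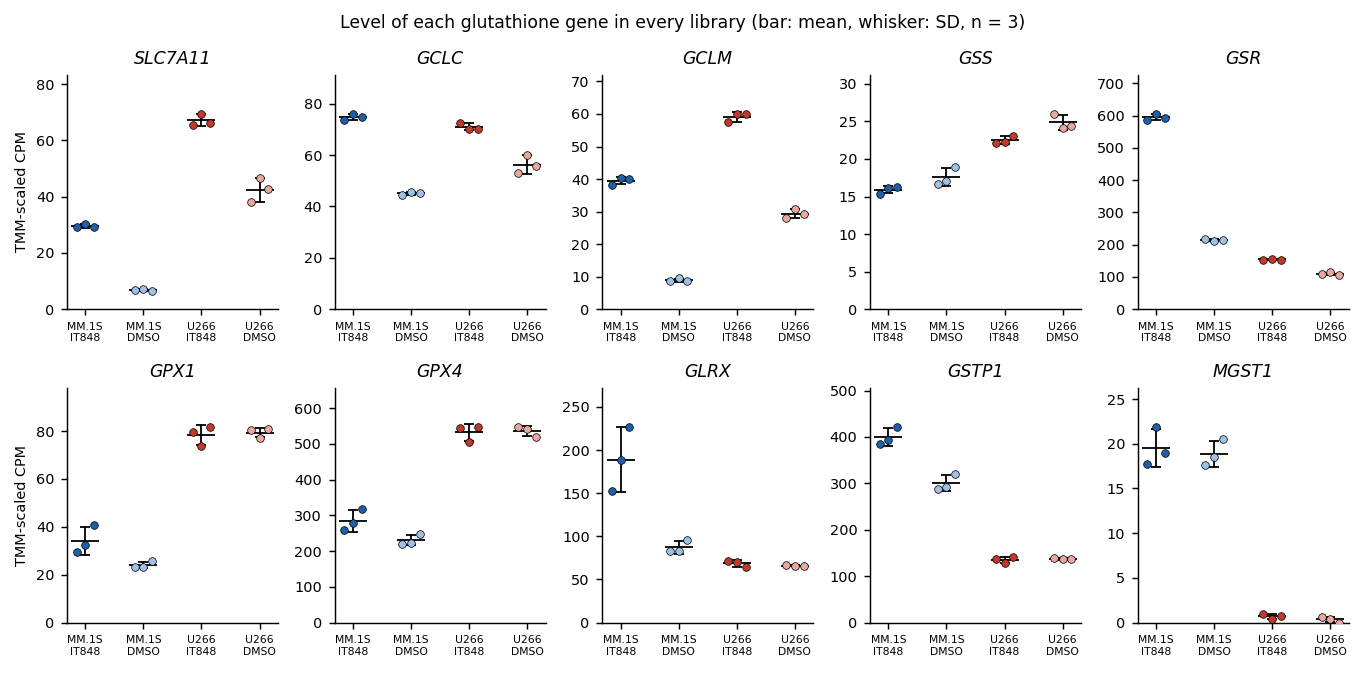
Level of each of the 10 genes in TMM-scaled CPM (vertical axes, each starting at 0) in every library of MM.1S with IT848, MM.1S with DMSO, U266 with IT848 and U266 with DMSO. Points are libraries, long bars the mean of 3 and whiskers the SD. SLC7A11, GCLC, GCLM and GSR were higher with IT848 in both lines, and MGST1 stayed below 1 CPM in every U266 library.

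SLC7A11 encodes the transport subunit of xCT, which brings cystine into the cell. In MM.1S it stood at 29.3, 30.3 and 29.2 CPM with IT848, against 6.92, 7.08 and 6.50 CPM with DMSO. In U266 it stood at 65.6, 69.5 and 66.3 CPM with IT848, against 38.2, 46.7 and 42.6 CPM with DMSO. In both lines every IT848 library was above every DMSO library, which in MM.1S was so, in one direction or the other, for 47.2% of all genes tested and in U266 for 28.9%. The rise was 4.33-fold in MM.1S (log2 fold change 2.12 ± 0.07, SE; adjusted p 4.86e-11) and 1.58-fold in U266 (0.66 ± 0.06; adjusted p 8.42e-06). The response was larger in MM.1S by 1.46 ± 0.10 on the log2 scale (adjusted p 2.67e-07). Even so, the IT848 libraries of MM.1S all stayed below the DMSO libraries of U266.

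Glutamate-cysteine ligase has a catalytic subunit, encoded by GCLC, and a modifier subunit, encoded by GCLM, which makes the enzyme more efficient and less sensitive to inhibition by glutathione. GCLC was at 73.5, 76.1 and 74.9 CPM in MM.1S with IT848, against 44.6, 45.5 and 45.4 CPM with DMSO. In U266 it was at 72.6, 70.1 and 70.3 CPM with IT848, against 52.9, 60.1 and 55.9 CPM with DMSO. The groups did not overlap in either line, and the IT848 means of both lines, 74.8 ± 1.33 CPM in MM.1S and 71.0 ± 1.37 CPM in U266 (SD, n = 3), lay close together. GCLC rose by 0.73 ± 0.05 in MM.1S (adjusted p 5.11e-08) and by 0.33 ± 0.05 in U266 (adjusted p 3.44e-04), and these responses differed by 0.39 ± 0.07 (adjusted p 0.00121).

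GCLM was at 38.3, 40.3 and 40.0 CPM in MM.1S with IT848, against 8.68, 9.46 and 8.67 CPM with DMSO. In U266 GCLM stood at 57.4, 59.9 and 60.1 CPM with IT848, against 28.0, 30.8 and 29.4 CPM with DMSO. Again no IT848 library fell within the DMSO range of its line. The rise was 4.43-fold in MM.1S (2.15 ± 0.06; adjusted p 2.15e-12) and 2.01-fold in U266 (1.01 ± 0.05; adjusted p 1.64e-08), with a difference of 1.14 ± 0.08 between the lines (adjusted p 2.91e-07). A rise of at least 2-fold was called for 1.66% of all genes in MM.1S and for 0.536% in U266. Of the 10 genes, GCLM was the only one called at this size in both lines. Its U266 value lay close to that size, at 0.97 to 1.05 when single libraries were left out. In MM.1S, SLC7A11, GSR and GLRX passed it too, GLRX with 0.97 to 1.27 when single libraries were left out.

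The window of 250 bases before the GCLM start (RefSeq, GRCh38.p14, chr1:93909431-93909680, minus strand, printed along the gene) is shown because it holds a match to the core of the antioxidant response element, TGACNNNGC, to which NRF2 binds with a small MAF protein. The match, in capitals, lies on the strand opposite to the gene, reads TGACTAAGC in the orientation of the motif, and its first printed base is 34 bases before the start.
GCLM: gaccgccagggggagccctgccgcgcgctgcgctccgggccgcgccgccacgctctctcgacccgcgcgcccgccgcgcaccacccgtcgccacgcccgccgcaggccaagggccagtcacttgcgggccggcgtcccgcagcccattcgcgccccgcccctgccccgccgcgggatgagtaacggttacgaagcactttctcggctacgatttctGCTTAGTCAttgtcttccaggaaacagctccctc
Searched on both strands, the same letters occurred in 10.9% of 35116 windows of this length, and in at least 1 window of 13.2% of 27305 gene symbols. They were found in 2 of the 7 glutathione genes with a window, GCLM and GSTP1, and not in the windows of GCLC, GLRX, GPX1, GPX4 and MGST1. A match is a description of the letters and not of binding, and sites farther away were not searched.

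Because both ligase subunits rose by different amounts, their ratio shifted. Per kilobase of transcript, the level of GCLC over that of GCLM was 0.776, 0.762 and 0.755 in MM.1S with IT848, against 2.08, 1.95 and 2.11 with DMSO. In U266 the ratio was 0.510, 0.473 and 0.472 with IT848, against 0.763, 0.787 and 0.769 with DMSO. In MM.1S the catalytic subunit mRNA was thus the more abundant one with DMSO and the less abundant one with IT848, while in U266 the modifier mRNA led in all 6 libraries. The mean ratio was 0.764 ± 0.0105 against 2.05 ± 0.0888 in MM.1S and 0.485 ± 0.0217 against 0.773 ± 0.0125 in U266 (IT848 against DMSO, SD, n = 3). A two-sided exact permutation test gave p = 0.1 in each line, the smallest p that 3 against 3 libraries allow. The ratio of MM.1S with IT848 was close to that of U266 with DMSO, and their libraries overlapped.

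**Figure D2:**
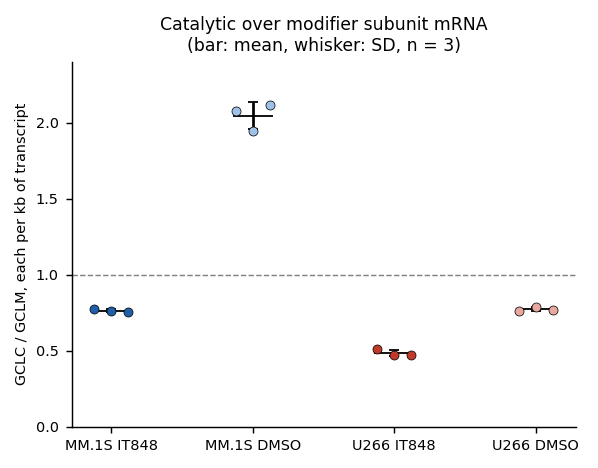
Ratio of GCLC to GCLM, each per kilobase of its most counted transcript (vertical axis, no unit), in the 3 libraries of each group. Points are libraries, long bars means and whiskers the SD, and the dashed line marks equal levels. The MM.1S libraries with DMSO were the only ones above 1.

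GSS encodes glutathione synthetase, the enzyme of the last step of synthesis. It was at 15.3, 16.1 and 16.3 CPM in MM.1S with IT848, against 16.7, 17.0 and 19.0 CPM with DMSO. The U266 libraries had 22.2, 22.3 and 23.1 CPM with IT848, against 26.0, 24.1 and 24.4 CPM with DMSO. The IT848 libraries lay below the DMSO libraries in both lines, by a small margin. The log2 fold change was −0.14 ± 0.06 in each line and was not called (adjusted p 0.0847 in MM.1S, 0.177 in U266). With the length trend taken out, GSS was called in MM.1S at −0.21 (adjusted p 0.00587). The difference of its responses was estimated at 0.00077 ± 0.09.

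GSR encodes glutathione reductase, which regenerates reduced glutathione. It stood at 587, 606 and 592 CPM in MM.1S with IT848, against 218, 212 and 216 CPM with DMSO. In U266 it stood at 154, 155 and 154 CPM with IT848, against 109, 114 and 105 CPM with DMSO. The groups were far apart in MM.1S and clearly separate in U266, and the libraries of a group were close together. GSR rose 2.77-fold in MM.1S (1.47 ± 0.04; adjusted p 1.70e-12) and 1.41-fold in U266 (0.50 ± 0.04; adjusted p 9.78e-07). Unlike SLC7A11, GCLC and GCLM, GSR was already higher in MM.1S than in U266 under DMSO, and its larger response there (difference 0.97 ± 0.05; adjusted p 3.38e-08) widened that gap.

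**Figure D3:**
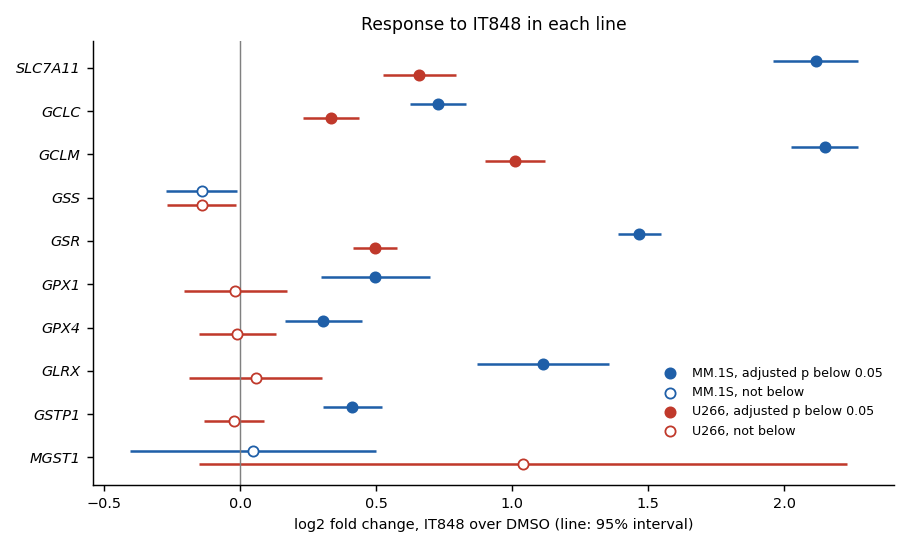
Log2 fold change of IT848 over DMSO (horizontal axis) for the 10 genes, in MM.1S (blue, upper of each pair) and U266 (red, lower). Lines are 95% intervals of the edgeR quasi-likelihood fit, and filled points have an adjusted p below 0.05. Both responses of GSS lay at −0.14, and the interval of MGST1 in U266 was the widest.

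GPX1 and GPX4 are selenium-containing glutathione peroxidases. GPX1 reduces hydrogen peroxide in the cytosol and mitochondria, and GPX4 reduces lipid peroxides in membranes and guards against ferroptosis. GPX1 was at 29.4, 32.2 and 40.6 CPM in MM.1S with IT848, against 23.3, 23.4 and 25.7 CPM with DMSO. In U266 the GPX1 level was 79.6, 73.9 and 81.8 CPM with IT848, against 80.4, 77.1 and 80.7 CPM with DMSO. The groups were separate in MM.1S, with replicate 3 highest in both, and overlapped in U266. The rise in MM.1S was 0.50 ± 0.09 (adjusted p 8.91e-04), and 0.32 with the length trend taken out. In U266 the estimate was −0.02 ± 0.09 (adjusted p 0.949). The responses differed by 0.51 ± 0.13 (adjusted p 0.0138), a call that was lost without the 2 libraries with traces of the other line (adjusted p 0.0561).

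GPX4 was at 258, 279 and 317 CPM in MM.1S with IT848, against 221, 223 and 247 CPM with DMSO. In U266 the GPX4 level was 545, 504 and 547 CPM with IT848, against 546, 541 and 520 CPM with DMSO. As for GPX1, the groups were separate in MM.1S, with replicate 3 highest in both, and overlapped in U266. GPX4 rose 1.24-fold in MM.1S (0.31 ± 0.07; adjusted p 0.0024), but by only 0.10 with the length trend taken out (adjusted p 0.0294). The difference from U266, 0.32 ± 0.09 (adjusted p 0.0322), was lost in 9 of the 12 fits that left out a single library (adjusted p of up to 0.0909) and without the 2 libraries together (adjusted p 0.105). With the length trend taken out it was 0.15 (adjusted p 0.0428).

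GLRX encodes glutaredoxin 1, which removes glutathione from protein cysteines. It was at 152, 188 and 227 CPM in MM.1S with IT848, against 82.9, 83.2 and 95.9 CPM with DMSO. The U266 levels of GLRX were 71.5, 69.7 and 64.6 CPM with IT848, against 66.5, 66.1 and 65.2 CPM with DMSO. The MM.1S libraries with IT848 were spread more widely than in any other group, yet all lay above the DMSO libraries, and the U266 groups overlapped. GLRX rose 2.16-fold in MM.1S (1.11 ± 0.11; adjusted p 8.11e-06), and by 1.01 with the length trend taken out. In U266 the estimate was 0.06 ± 0.11 (adjusted p 0.848), and the difference was 1.06 ± 0.16 (adjusted p 7.13e-04).

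GSTP1, GPX4, MGST1, GPX1, GLRX and GSS have most counted transcripts of 958, 1007, 1071, 1183, 1647 and 1900 bases. Those of GSR, GCLM, GCLC and SLC7A11 have 3160, 3074, 3812 and 9648 bases. The MM.1S library with the most negative length correlation, IT848 replicate 3, held the highest MM.1S level of GSTP1, GPX4, GPX1 and GLRX. It did not for MGST1, which was highest in IT848 replicate 2 (21.9 against 19.0 CPM), nor for GSS, which was highest in DMSO replicate 3. With the trend taken out, the MM.1S log2 fold change was 0.21 for GSTP1 and 0.10 for GPX4, 2.14 for GCLM and 1.47 for GSR, and 2.29 for SLC7A11.

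**Figure D4:**
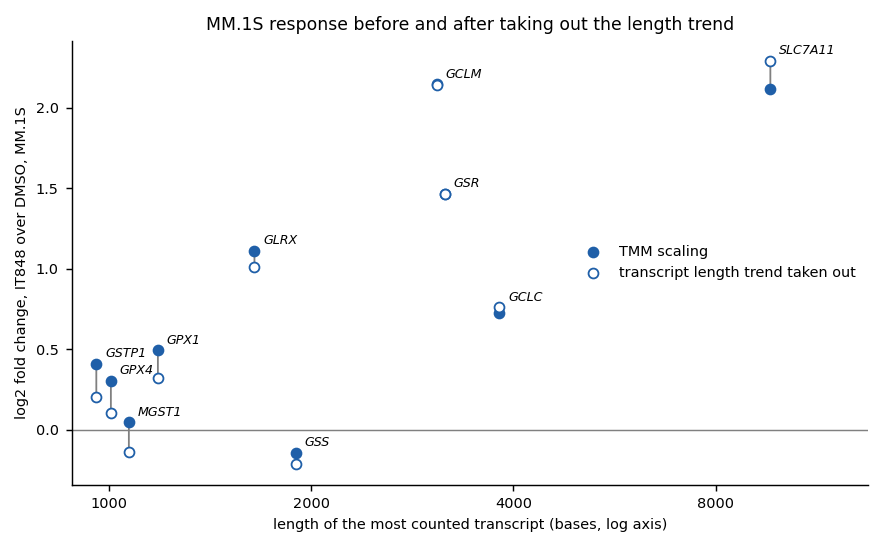
Log2 fold change of IT848 over DMSO in MM.1S (vertical axis) against the length of the most counted transcript in bases (horizontal log axis) for the 10 genes. Filled points use TMM scaling alone, open points have each library's length trend taken out, and lines join both values of a gene. The values of GSTP1, GPX4, GPX1 and MGST1, the genes with the shortest transcripts, moved down, and that of SLC7A11 moved up.

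GSTP1 and MGST1 encode glutathione transferases, GSTP1 the soluble pi-class enzyme and MGST1 a microsomal enzyme of membranes. GSTP1 was at 385, 393 and 422 CPM in MM.1S with IT848, against 288, 293 and 320 CPM with DMSO. The U266 levels of GSTP1 were 137, 127 and 141 CPM with IT848, against 139, 136 and 136 CPM with DMSO. The groups were separate in MM.1S and overlapped in U266. GSTP1 rose 1.33-fold in MM.1S (0.41 ± 0.05; adjusted p 2.27e-05), or by 0.21 with the length trend taken out. The estimate in U266 was −0.02 ± 0.05 (adjusted p 0.865), and the responses differed by 0.44 ± 0.07 (adjusted p 9.74e-04), or by 0.27 without the trend.

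The 250 bases before the GSTP1 start (RefSeq, GRCh38.p14, chr11:67583562-67583811, plus strand) are shown because this was the other searched window with the antioxidant core motif. The match, in capitals, lies on the strand of the gene with its first base 66 bases before the start. It reads TGACTCAGC and contains a match to the AP-1 core TGANTCA, which occurred in 6.57% of all windows and in those of 8.06% of gene symbols, and in no other window of the 7 genes.
GSTP1: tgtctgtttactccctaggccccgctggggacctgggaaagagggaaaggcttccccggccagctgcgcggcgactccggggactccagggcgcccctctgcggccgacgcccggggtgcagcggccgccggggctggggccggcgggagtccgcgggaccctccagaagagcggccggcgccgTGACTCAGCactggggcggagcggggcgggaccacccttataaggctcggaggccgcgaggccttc
The GCLM match holds no AP-1 core of this spelling. The GCLC window held neither motif, and sites farther from the GCLC start were not searched.

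MGST1 set the lines apart and showed no called response. It was at 17.7, 21.9 and 19.0 CPM in MM.1S with IT848, against 17.6, 18.6 and 20.5 CPM with DMSO. In U266 it was at 0.906, 0.430 and 0.705 CPM with IT848, against 0.598, 0.427 and 0 CPM with DMSO. The U266 values rest on 6, 3 and 6 reads of its most counted transcript with IT848 and on 4, 3 and 0 with DMSO, and the groups overlapped in both lines. The log2 fold change was 0.05 ± 0.21 in MM.1S (adjusted p 0.891) and 1.04 ± 0.55 in U266 (adjusted p 0.319), so a response in U266 could not be measured at this depth. MGST1 is listed with 9 transcripts, and its CPM counts a read once for each transcript it overlaps.

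Under DMSO the lines differed in all 10 genes. MM.1S was higher for 4 and lower for 6, where 40.6% of all genes were higher, 42.1% lower and 82.6% different in either direction, so the count is near what most genes showed. The libraries of the lines overlapped for none of the 10, which was so for 84.7% of all genes. MGST1 was higher in MM.1S by 5.83 ± 0.35 on the log2 scale (adjusted p 2.91e-09), GSTP1 by 1.13 ± 0.05 (adjusted p 2.06e-11), GSR by 0.98 ± 0.04 (adjusted p 2.53e-12) and GLRX by 0.41 ± 0.11 (adjusted p 0.00462). SLC7A11 was lower in MM.1S by a log2 fold change of −2.64 ± 0.07 (adjusted p 6.18e-14). GCLM and GPX1 were both at −1.72, GPX4 at −1.22, GSS at −0.50 and GCLC at −0.32. Both lines thus carried a different mix of these 10 genes before treatment. MM.1S had less of SLC7A11, GCLC, GCLM, GSS, GPX1 and GPX4, and more of GSR, GLRX, GSTP1 and MGST1. This does not extend to the gene classes. Of 14 other transferases tested, 6 were higher and 8 lower in MM.1S with DMSO. Of 4 other peroxidases tested, 2 were higher and 1 lower.

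Levels of different genes can be compared per kilobase of the most counted transcript, in CPM per kilobase. In MM.1S, GSTP1 was highest, at 920 ± 45.6 with IT848 and 692 ± 40.3 with DMSO (SD, n = 3), followed by GPX4 at 209 and 169, GSR at 105 and 37.8, and GLRX at 63.6 and 29.6. In U266, GPX4 was highest, at 388 ± 17.4 with IT848 and 390 ± 9.45 with DMSO, followed by GSTP1 at 309 and 314 and GPX1 at 72.7 and 73.7. GCLM moved up the order in both lines. It was the sixth of 10 with IT848, at 28.4, and the eighth with DMSO, at 6.41, in MM.1S, and the fourth with IT848, at 42.2, and the sixth with DMSO, at 21.0, in U266. Neighbours in the order were separate in every library but for 2 pairs, GPX1 and GCLM in MM.1S with IT848 and GPX1 and GSS in MM.1S with DMSO. SLC7A11 was last of the 10 in MM.1S with DMSO, at 1.56, and MGST1 was last in the other 3 groups.

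The size of the response differed between the lines for 8 of the 10 genes, each larger in MM.1S, where 8.49% of all genes tested were called in this direction, 8.94% in the other and 17.4% in either. Without the 2 libraries with traces of the other line, 6 were called, all but GPX1 and GPX4. The median difference was 0.48 over the 10 genes and −0.02 over all genes. Summed over the 10 genes, the level was 1585, 1683 and 1778 CPM in MM.1S with IT848, against 928, 931 and 1004 CPM with DMSO, and 1205, 1152 and 1209 CPM in U266 with IT848, against 1086, 1097 and 1060 CPM with DMSO. The IT848 libraries were above the DMSO libraries in both lines, with the wider gap in MM.1S. This sum repeats reads of genes listed with several transcripts, so it weights the genes unequally. MGST1 has 9, GSR and GLRX 4, GPX4 3, and GCLC and GPX1 2, while SLC7A11, GCLM, GSS and GSTP1 have 1. GSR was at a mean of 595 CPM in MM.1S with IT848 against 215 CPM with DMSO.

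A wider list of 60 glutathione genes outside these 10 was read beside them, of which 45 were tested. In MM.1S 18 of them rose and 5 fell, with a median log2 fold change of 0.25. With the length trend taken out 13 rose and 6 fell, and without the 2 libraries with traces of the other line 18 rose and 3 fell. These were not all the same genes. Without the 2 libraries 5 of the 23 calls were lost, those of SLC1A4, CNDP2, GLRX3, SLC25A39 and ESD. Rises of GSTM2, GSTO2 and GSTT1 were gained. GSTT1, below 1 CPM in every MM.1S library, turned from −0.23 to 1.81. In U266 7 rose and 1 fell, with a median of 0.03, and without the 2 libraries 5 rose and 0 fell. Of all genes tested, 18.7% rose and 19.6% fell in MM.1S, and 4.03% rose and 4.98% fell in U266. In MM.1S the rises included 6 of the 14 other transferases tested, 5 of the 6 other users of glutathione and 2 of the 3 other glutaredoxins, while none of the 6 transport genes rose and 3 fell. With the length trend taken out these counts were 5 transferases, 3 users and 0 glutaredoxins that rose, 1 glutaredoxin that fell, and 3 transport genes that fell. Without the 2 libraries with traces of the other line they were 9 transferases, 4 users and 1 glutaredoxin that rose, and 2 transport genes that fell.

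Of the 4 tested genes that supply cystine or cysteine, 3 rose and 1 fell in MM.1S, and 4 rose in U266. CTH, the enzyme that releases cysteine in the transsulfuration pathway, was at 13.0 ± 1.11 CPM in MM.1S with IT848 against 5.53 ± 0.697 CPM with DMSO (SD, n = 3; log2 fold change 1.23 ± 0.09; adjusted p 9.49e-08), and at 44.7, 43.6 and 45.6 CPM in U266 with IT848 against 21.4, 22.8 and 22.4 CPM with DMSO (1.01 ± 0.07; adjusted p 7.29e-07). CBS, which feeds CTH with cystathionine, rose by 0.68 ± 0.13 in MM.1S and by 0.53 ± 0.09 in U266. Neither response differed between the lines at the threshold (difference 0.22 ± 0.11 for CTH, adjusted p 0.205, and 0.15 ± 0.16 for CBS, adjusted p 0.546). SLC3A2, the heavy chain that carries the SLC7A11 protein to the membrane, rose by 0.17 ± 0.04 in MM.1S and by 0.30 ± 0.04 in U266. SLC1A4, a neutral amino acid exchanger, fell by 0.14 in MM.1S (adjusted p 0.0301) and rose by 0.20 in U266 (adjusted p 0.0196). Both calls were lost without the 2 libraries with traces of the other line (adjusted p 0.107 in MM.1S and 0.0742 in U266), and the one in MM.1S also with the length trend taken out (−0.087, adjusted p 0.103).

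CHAC1, which cleaves glutathione inside the cell, was at 4.21 ± 0.262 CPM in MM.1S with IT848 against 4.59 ± 0.324 CPM with DMSO, and at 33.0 ± 0.998 CPM in U266 with IT848 against 23.0 ± 0.763 CPM with DMSO. In MM.1S the estimate was −0.13 ± 0.08 (adjusted p 0.221), and with the length trend taken out it was called at −0.24 (adjusted p 0.0461). CHAC1 rose in U266 by 0.52 ± 0.06 (adjusted p 4.91e-05), and the responses differed by −0.64 ± 0.10 (adjusted p 5.07e-04), in the direction opposite to that of SLC7A11, GCLC and GCLM. MGST2, another microsomal transferase, rose in MM.1S by 0.47 ± 0.07 (adjusted p 1.16e-04) and fell in U266 by 0.31 (adjusted p 0.019), a call that was lost without the 2 libraries (adjusted p 0.114), and the responses differed by 0.79 ± 0.10 (adjusted p 1.78e-04). GLRX2, the mitochondrial glutaredoxin, rose by 0.30 ± 0.06 in both lines, but in MM.1S it was at 0.049 and no longer called with the length trend taken out (adjusted p 0.448).

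GSTM3, a mu-class transferase with relatives in that class, had the largest log2 fold change of the wider list in MM.1S, 3.62 ± 0.48. That value rested on only 36, 26 and 32 reads with IT848 against 4, 4 and 0 reads with DMSO. The other rises named in MM.1S were smaller: 0.61 for ADH5, which acts on S-nitrosoglutathione, 0.59 for GSTO1, an omega-class transferase, 0.50 for MGST3, 0.45 for ETHE1, a mitochondrial enzyme of sulfide oxidation, 0.39 for GSTM4, 0.39 for HAGH, the second glyoxalase, and 0.38 for GGT1, which cleaves glutathione at the cell surface and has near-identical copies. With the length trend taken out, ETHE1 was no longer called (0.24, adjusted p 0.0526), while GSTO1 was at 0.38, MGST3 at 0.38, HAGH at 0.28, GSTM4 at 0.27 and MGST2 at 0.32, all 5 still called. ABCC1, which exports glutathione conjugates, fell by 0.43 in MM.1S, and by 0.32 with the length trend taken out. In U266, ABCC4, another exporter of this family, rose by 1.65 on 8, 8 and 10 reads with IT848 against 2, 5 and 1 with DMSO, a call that was lost without the 2 libraries (adjusted p 0.0572).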

How the data were processed

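Each library came with a table of RefSeq transcripts on the hg19 build. Per the submitters' processing notes, the tools were bcl2fastq, Trimmomatic 0.36, the aligner STAR 2.5.2b, and featureCounts from Subread 1.5.2. The strand setting and the handling of multiply aligned reads were not given in the sources used here. The deposited count is the authors' number of reads per transcript. The deposited FPKM served only to recover transcript lengths, and the deposited TPM, scaled by the authors to a common total, only as a check. Every transcript overlapped by a read received its count, and counts were summed per gene symbol, so sums repeat reads. GCLC and SLC7A11 have antisense genes, and GLRX, GPX1 and GSTP1 have pseudogenes with which reads may be shared.

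Testing used edgeR 4.0.16 in R 4.3.3 (quasi-likelihood F test, robust, TMM, filter with a minimum count of 10) on all 12 libraries with a mean per group, with Benjamini-Hochberg adjustment over 16782 genes and calls at adjusted p below 0.05. Scripts were tested on simulated data. The bases before the starts of SLC7A11, GSS and GSR were not searched for motifs. Levels are TMM-scaled CPM as mean ± SD, and fold changes are log2 ± SE. Alternatives were DESeq2 1.42.0, no filter, the most counted transcript, compared groups alone, a replicate block, leaving out libraries, and a transcript length offset. The genes and lists were chosen with earlier results of these data known. Of the wider list, the text names up to 12 called genes with the largest change per line; SLC1A4 in MM.1S, SLC3A2 in MM.1S, GLRX2 in MM.1S and CHAC1 in MM.1S are named for comparison with U266. For the genes with a named response, depth makes counting error small except for MGST1 in U266, ABCC4 in U266, GSTM3, and GSTT1 and GSTO2 in MM.1S.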

Additional observations from a re-analysis of the deposited data

Results flagged for a closer look

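The response to IT848 differed between the lines for 8 of the 10 genes by the test of the difference itself, MM.1S minus U266 on the log2 scale, in edgeR's quasi-likelihood fit. By the same test 8.49% of all genes tested were called in this direction, 8.94% in the other and 17.4% in either. The difference was 1.46 for SLC7A11, 0.39 for GCLC, 1.14 for GCLM, 0.97 for GSR, 0.51 for GPX1, 0.32 for GPX4, 1.06 for GLRX and 0.44 for GSTP1. In SLC7A11, GCLC, GCLM and GSR both lines moved the same way and by different amounts. In GPX1, GPX4, GLRX and GSTP1 the rise was called in MM.1S and not in U266. Only the calls of GPX1 and GPX4 were lost under an alternative, GPX1 without the 2 libraries with traces of the other line and GPX4 there and in 9 of 12 fits without a single library.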

How the results depend on the processing

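Of 570 values of the 10 genes under the alternatives, 543 kept their direction and their side of the threshold, 12 lost a call, 1 gained one and 14 changed sign, all 14 of them values that were not called. The genes called in U266, 1512, became 924 without the 2 libraries with traces of the other line and 986 to 1264 when single libraries were left out, lowest without DMSO replicate 3. The differing responses, 2924, became 1712 without the 2 libraries, 2208 to 3870 when single libraries were left out, and 4388 with the replicate number as a block. Same-numbered libraries did not deviate together in every pair, so the numbers are not taken to pair them. With the block, 4, 8 and 8 of the 10 genes were called in U266, in MM.1S and in the difference. Without the block, 9.01%, 38.3% and 17.4% of all genes tested were called in these comparisons. As coded, the block fit compared the lines at the level of replicate 1 and not at the mean of 3 libraries. In that comparison 9 of the 10 genes were called, where 82.6% of all genes were called between the lines without the block. GLRX was not called there (0.18, adjusted p 0.0787), which is not a like-for-like check of its value of 0.41. With single libraries left out, the sign of uncalled changes turned for GPX4 (−0.029 to 0.032), GPX1 (−0.048 to 0.028) and GSTP1 (−0.054 to 0.021) in U266, for MGST1 in MM.1S (−0.042 to 0.13) and for the difference of GSS (−0.033 to 0.060). MGST1 in MM.1S was at −0.14 and the difference of GSS at −0.059 with the length trend taken out, and the difference of GSS was at −0.021 without the 2 libraries. The cause of these changes was not tested. Limiting the fit to the compared libraries does not apply to the difference, which uses all 12. With 3 libraries per group a single library can decide a small change, and MGST1 in U266 is limited by depth.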

Other observations

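The genes whose log2 CPM followed SLC7A11 most closely over the 12 libraries, among 10585 genes with a mean of at least 5 CPM, were ST13 (Pearson r 0.993), DCTN4 (0.992), PSMC4 (0.991), ETV5 (0.991) and CALCOCO2 (0.990). Those closest to GCLM were GLA (0.996), HSP90AA1 (0.995), KEAP1 (0.982), RIT1 (0.980) and AIM2 (0.978). The libraries fall into 4 groups, so these values mostly describe a shared order of 4 group means, and they carry no test. HSP90AA1, an HSP90 gene with near-identical relatives, was at 3588 ± 547 CPM in MM.1S with IT848 against 654 ± 35.7 CPM with DMSO, and at 6930 ± 306 CPM in U266 with IT848 against 2659 ± 131 CPM with DMSO (SD, n = 3). KEAP1, which encodes the protein that marks NRF2 for degradation, was at 184 ± 5.95 CPM in MM.1S with IT848 against 114 ± 4.59 CPM with DMSO, and at 196 ± 2.95 CPM in U266 with IT848 against 172 ± 3.77 CPM with DMSO.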
